A study of Mus musculus with 12 samples.

Results

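The lipoprotein and cholesterol export genes *Apob*, *Mttp*, *Apoa1*, *Apoe*, *Abca1*, *Abcg1*, *Npc1*, *Npc2*, *Soat1* and *Soat2* were examined in tumors grown under the skin of mice. They were chosen by name for their part in cholesterol transport and esterification, and all 10 were in the table of 15687 genes. The tumors came from mTC11, a lung cancer line of the mouse, which had been infected with lentivirus carrying either a control shRNA (shControl; 6 tumors, CTL) or an shRNA against *Filip1l* (6 tumors, *Filip1l*-knockdown). All 12 tumors were grown under the skin of male C57BL6/J mice aged 8 weeks at injection, which have an intact immune system, and were harvested on day 24 and snap-frozen. The infected cells were kept as drug-selected mixed clones, and the labels do not say which of the shRNA constructs against *Filip1l* the sequenced tumors carried.

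Cholesterol leaves a cell in lipoprotein particles or through pumps in the plasma membrane. Hepatocytes and absorptive enterocytes build large particles around ApoB, which the microsomal triglyceride transfer protein (MTTP) loads with lipid in the endoplasmic reticulum. Other cells, and macrophages above all, hand cholesterol through ABCA1 and ABCG1 to particles that carry ApoA-I or ApoE. Cholesterol taken up by endocytosis first has to leave the lysosome through NPC2 and NPC1, and any surplus is esterified by SOAT1 or SOAT2. The lung makes ApoE and pumps cholesterol in its macrophages, while ApoB particle assembly is known chiefly from liver and small intestine.

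Values are normalized counts, that is, reads per gene divided by a size factor for each tumor. They are comparable between tumors for a given gene, and between genes only after division by length. Between 17834745 and 29502069 reads fell on listed genes in CTL tumors and between 25460564 and 32419578 in knockdown tumors. *Filip1l* itself averaged 2311 ± 211 normalized counts in CTL and 1924 ± 165 in knockdown tumors (SD, n = 6 each), with overlapping ranges (log2 fold change -0.26, limma adjusted p = 0.00998). Genes were called changed at a limma adjusted p under 0.05 together with an absolute log2 fold change over 1, and by this rule 10.2% of all genes were called, 6.2% higher and 3.97% lower in knockdown tumors. Because these are bulk tumors that mix cancer and host cells, fewer cells of a type and less RNA per cell cannot be told apart.

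Of the 10 genes, 3 were called, and all 3 were higher in knockdown tumors: *Apob*, *Mttp* and *Apoa1*, the genes of ApoB particle assembly and of the chief HDL protein. None of the 10 was called lower by limma, edgeR or DESeq2, and 1 of them, *Soat1*, was lower at an unadjusted p under 0.05. By adjusted p alone 5 of 10 passed, *Npc1* and *Soat1* being the further ones, where 41.9% of all genes did. The ranges of both groups were separate for the same 5 genes, and this held for 21.5% of all genes. The median log2 fold change was 1.23 over the 4 particle and assembly genes, 0.07 over the efflux pumps, 0.14 over the lysosomal pair and -0.38 over the esterifying pair, beside 0.01 over all genes.

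**Figure D1:**
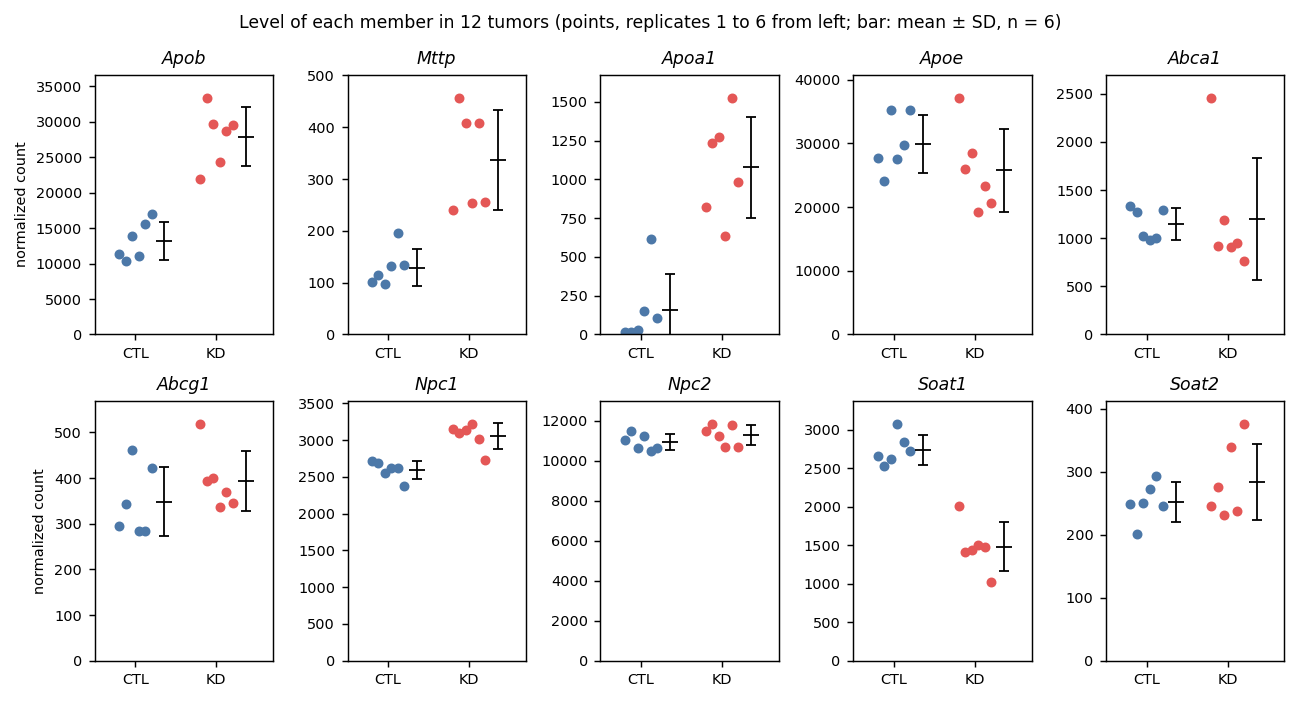
Normalized count (vertical axis, from 0, separate for each gene) of the 10 genes in 6 CTL (blue) and 6 knockdown tumors (red), with the group mean ± SD in black; the lower end of the CTL bar of Apoa1 is hidden below 0. For Apob, Mttp, Apoa1 and Npc1 every knockdown tumor lies above every CTL tumor, for Soat1 every one lies below, and the other 5 genes overlap.

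**Figure D2:**
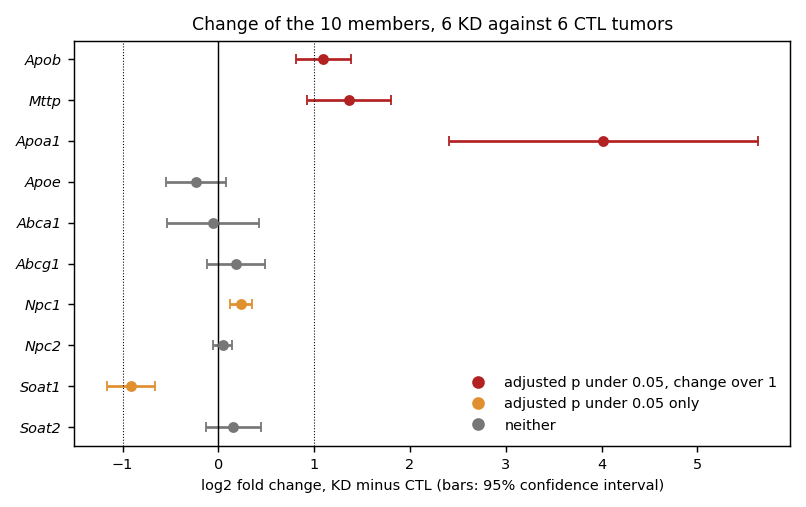
Log2 fold change, knockdown minus CTL (horizontal axis), of the 10 genes, with 95% confidence intervals of the limma fit; dotted lines mark changes of -1 and 1. Apoa1 has the largest change (4.02) and by far the widest interval, from 2.41 to 5.63, while Npc2 has the narrowest, from -0.06 to 0.15.

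*Apob* encodes the giant structural protein around which chylomicrons and very-low-density lipoproteins are built. It maps to chromosome 12 (+ strand) at 7977648 to 8016835 (ENSMUSG00000020609, GRCm38). CTL tumors had from 10297 to 16960 normalized counts of *Apob* with a median of 12588. Knockdown tumors had from 21870 to 33329 with a median of 29127. The lowest knockdown tumor was above the highest CTL tumor. Mean levels of *Apob* were 13165 ± 2711 and 27898 ± 4131 normalized counts (SD, n = 6 each), which amounts to 1.09 ± 0.13 (SE) on the log2 scale (limma adjusted p = 1.9e-05; exact two-sided permutation p = 0.00216, the smallest that 924 arrangements of 12 tumors can give). *Apob* was thus an abundant transcript already in CTL tumors, and per kilobase of annotated exon it averaged 945 normalized counts there and 2002 in knockdown tumors.

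*Mttp* encodes the transfer protein without which ApoB is degraded unsecreted. It maps to chromosome 3 (- strand) at 138089854 to 138144968 (ENSMUSG00000028158). *Mttp* ranged from 97.2 to 196 normalized counts in CTL tumors, with a median of 124. In knockdown tumors it ranged from 241 to 456, with a median of 332. The groups did not overlap, although CTL replicate 5, at 196, came near knockdown replicate 1, at 241. Means were 129 ± 35.9 and 337 ± 96.8 normalized counts (SD, n = 6 each), which amounts to 1.37 ± 0.20 (SE) on the log2 scale (limma adjusted p = 1.1e-04; exact permutation p = 0.00216). Exons of *Mttp* overlap those of *Trmt10a* on the opposite strand. Whether reads were counted by strand is not given in the sources used here, so reads of the overlap cannot be assigned with certainty. *Trmt10a* had 209 ± 25.3 normalized counts in CTL and 226 ± 16.1 in knockdown tumors (log2 fold change 0.12, limma adjusted p = 0.37).

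*Apoa1* encodes the main protein of high-density lipoprotein and the acceptor of cholesterol from ABCA1. It maps to chromosome 9 (+ strand) at 46228580 to 46230466 (ENSMUSG00000032083). In CTL replicates 1 to 6 it had 14, 15.2, 27.2, 150, 615 and 107 normalized counts. In knockdown replicates 1 to 6 it had 824, 1234, 1272, 637, 1524 and 983. CTL tumors thus spread more widely in *Apoa1* than knockdown tumors did, taken as a ratio, and CTL replicate 5 lay just under the lowest knockdown tumor. Means were 155 ± 232 and 1079 ± 325 normalized counts (SD, n = 6 each). The log2 fold change was 4.02 ± 0.75 (SE; limma adjusted p = 6.7e-04; exact permutation p = 0.00216). The size of the *Apoa1* change depended on how tumors were averaged. The ratio of the means was 6.98, the fit to log values corresponds to 16.2-fold, and edgeR and DESeq2 on recovered reads gave log2 fold changes of 2.87 and 2.80.

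Sequence upstream of the start site is shown for *Apob* and *Apoa1*, which rose, and for *Soat1*, the gene that moved furthest the other way. RefSeq promoter entries (GRCm38.p6) were matched for 7 of the 10 genes. Each line gives, 5′ to 3′ on the strand of the gene, the 200 bases from 250 to 51 before the RefSeq start, a stretch that no annotated exon crosses. Capitals mark matches to the motifs searched. The windows are chr12:7977427-7977626 (+) for *Apob*, chr9:46228380-46228579 (+) for *Apoa1* and chr1:156474379-156474578 (-) for *Soat1*.
Apob: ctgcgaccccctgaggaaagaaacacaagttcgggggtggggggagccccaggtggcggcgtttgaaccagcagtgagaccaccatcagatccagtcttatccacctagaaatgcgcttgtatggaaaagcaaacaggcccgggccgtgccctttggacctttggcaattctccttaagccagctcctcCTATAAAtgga
Apoa1: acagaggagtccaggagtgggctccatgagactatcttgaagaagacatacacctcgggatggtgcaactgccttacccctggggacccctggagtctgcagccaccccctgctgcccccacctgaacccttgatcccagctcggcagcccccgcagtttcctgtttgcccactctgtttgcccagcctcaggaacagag
Soat1: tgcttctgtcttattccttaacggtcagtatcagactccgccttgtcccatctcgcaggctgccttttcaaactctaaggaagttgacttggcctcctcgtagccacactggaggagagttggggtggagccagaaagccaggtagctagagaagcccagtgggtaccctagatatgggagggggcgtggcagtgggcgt
The corresponding *Mttp* window lies inside the annotated *Mttp* gene, across exons of *Mttp* and *Trmt10a*, and is not printed.

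Both strands of the 250 bases before each RefSeq start were searched for 6 motifs. For *Mttp* these bases lie inside the annotated gene. The TATA box motif TATAAA occurs in 12.4% of the 32851 mouse promoters of this set and TTTATNG (CDX) in 9.81%. GTTAAT (HNF1 side) occurs in 6.43%, CAAAGTCCA (HNF4) in 0.384%, TCACNCCAC (sterol regulatory element) in 1.05% and AGGTCA (nuclear receptor core) in 14.0%. *Apob* held TATAAA at chr12:7977617-7977622, from 31 to 26 bases before the annotated gene start, and the overlapping TTTATNG on the opposite strand. *Abca1* held the same overlapping pair, and the alternative starts of *Apoe* held TATAAA on both strands and GTTAAT. No match to the 6 motifs was found in these windows for *Mttp*, *Apoa1*, *Npc2* or *Soat1*, which says only that these letters are not there. GC content of the 250 bases was 55.2% for *Apob*, 61.2% for *Mttp*, 58.0% for *Apoa1* and 58.8% for *Soat1*, beside a median of 52.4% over all promoters.

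Hepatocyte markers differed from tumor to tumor, and among CTL tumors *Apoa1* was highest where they were. *Alb*, the albumin gene that defines hepatocytes, had 5043 normalized counts in CTL replicate 5, 3646 in knockdown replicate 1 and 5010 in knockdown replicate 2. It had from 362 to 533 in CTL replicates 4 and 6 and knockdown replicate 6, and from 11.7 to 39 in the other 6 tumors. *Alb* itself did not differ by the test between groups (log2 fold change 0.18, limma adjusted p = 0.945). The sum of the 13 hepatocyte markers ranged from 445 to 9936 in CTL and from 923 to 10431 in knockdown tumors, no marker was at 0 throughout, and 1 of the 13, the transthyretin gene *Ttr*, was called higher. Among CTL tumors *Apoa1* was highest in replicate 5, as *Alb* was, lower in replicates 4 and 6, and lowest in the 3 tumors low in *Alb*, with 14 to 27.2 normalized counts. The 3 knockdown tumors low in *Alb*, replicates 3, 4 and 5, had from 637 to 1524 normalized counts of *Apoa1*, a range that holds the values of the 3 knockdown tumors richer in *Alb*.

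Fits were also made without the tumors with the highest hepatocyte sums. Without the 3 tumors with the highest hepatocyte sums the log2 fold change was 4.69 for *Apoa1*, 1.48 for *Mttp* and 1.16 for *Apob* (limma adjusted p = 1.8e-04, 8.5e-05 and 5.3e-05). Without the 6 highest, which leaves CTL replicates 1 to 3 and knockdown replicates 3 to 5, it was 5.82 for *Apoa1*, 1.73 for *Mttp* and 1.23 for *Apob* (limma adjusted p = 5.4e-05, 0.0011 and 5.4e-04). With the hepatocyte level as a covariate in the fit to all tumors it was 3.69, 1.32 and 1.07 in that order. All 3 genes remained called higher in each of these fits, which were chosen after seeing the data. The choice of tumors was tied to the levels of *Apoa1* and *Mttp*. CTL replicates 4 to 6 had from 107 to 615 normalized counts of *Apoa1*, and replicates 1 to 3 from 14 to 27.2. For *Mttp* these ranges were 132 to 196 and 97.2 to 116. Leaving out CTL replicates 4 to 6 therefore had to lower the CTL mean of both genes. In tumors low in *Alb* the hepatocyte sum was largely *Ttr*, which was itself called higher. *Ttr* made up 379 of 595 normalized counts in CTL replicate 1 and 652 of 923 in knockdown replicate 4. The part of hepatocytes in the changes of the 3 genes was not tested.

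**Figure D3:**
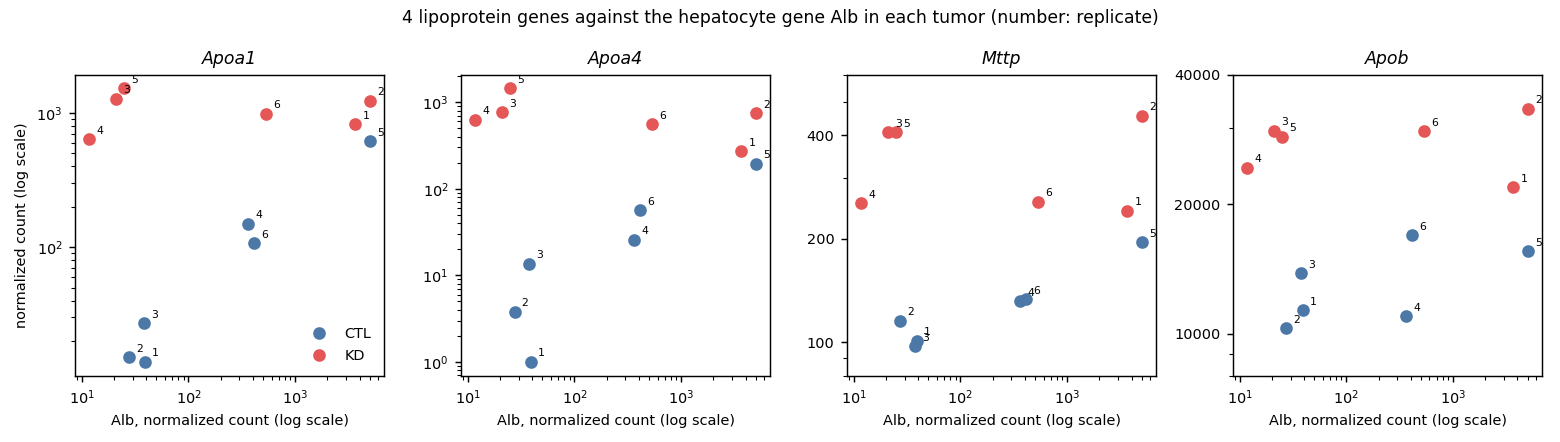
Normalized counts of Apoa1, Apoa4, Mttp and Apob (vertical axes) against Alb (horizontal axis) in 6 CTL (blue) and 6 knockdown tumors (red), log scales, with the replicate number beside each point. CTL tumors low in Alb had 14 to 27.2 normalized counts of Apoa1 and knockdown tumors low in Alb had 637 to 1524, while the groups came closest where Alb was high.

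Most measured markers of absorptive enterocytes, the other cells that make ApoB particles, were higher in knockdown tumors. The sum of the 10 measured markers ranged from 5444 to 9374 normalized counts in CTL and from 24384 to 37436 in knockdown tumors, and 8 of the 10 were called higher. The other 2, *Fabp1* and *Anpep*, were not called and overlapped (log2 fold changes 1.35 and 0.12, limma adjusted p = 0.45 and 0.68). *Fabp1* averaged 36.4 normalized counts in CTL and 31.8 in knockdown tumors. A further 3 genes of the list were not analysed. Of the defining genes, *Sis* (sucrase-isomaltase) went from at most 14 normalized counts in CTL to at least 201 in knockdown tumors, and *Alpi* (intestinal alkaline phosphatase) from at most 10.5 to at least 101. The fatty acid carrier gene *Fabp2* had overlapping ranges, from 0 to 12 normalized counts in CTL and from 7.83 to 36.3 in knockdown tumors. It was at or under 3 reads in 3 CTL tumors, and at 0 in 2 of them. *Cdh17*, the most abundant of the list, ranged from 2811 to 7256 and from 17184 to 27096. *Apoa4* belongs both to this list and to the apolipoproteins. The part of these genes in the change of *Apob*, *Mttp* and *Apoa1* was not tested.

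*Apoe* encodes the ligand by which remnant particles bind their receptors on cells, and is made by hepatocytes and macrophages alike. It lies on chromosome 7 from 19696109 to 19699188 (ENSMUSG00000002985). It was the most abundant of the 10 genes, with from 24018 to 35208 normalized counts in CTL tumors (median 28693). Knockdown tumors had from 19156 to 37100 (median 24645). The groups overlapped, 5 of 6 knockdown tumors lying below the CTL median and knockdown replicate 1 above every CTL tumor. The log2 fold change was -0.23 (95% confidence interval -0.55 to 0.08, limma adjusted p = 0.23; exact permutation p = 0.19). Without knockdown replicate 1 it was -0.35 (limma adjusted p = 0.031), still short of a log2 change of 1.

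The pumps *Abca1*, which loads lipid-poor ApoA-I, and *Abcg1*, which passes sterol on to mature HDL, were not called. They lie on chromosome 4 from 53030787 to 53159895 (ENSMUSG00000015243) and on chromosome 17 from 31057675 to 31117988 (ENSMUSG00000024030). *Abca1* ranged from 983 to 1339 normalized counts in CTL tumors (median 1145). In knockdown tumors it ranged from 763 to 2455 (median 932). Knockdown replicate 1, at 2455, stood far above the other 5, which reached at most 1188. The log2 fold change of *Abca1* was -0.05 (95% confidence interval -0.53 to 0.43, limma adjusted p = 0.87), and its sign was positive with edgeR and DESeq2 and when knockdown replicate 4 or 6 was left out. *Abcg1* ranged from 284 to 462 normalized counts in CTL (median 319) and from 337 to 517 in knockdown tumors (median 381), so the groups overlapped. All 6 knockdown tumors lay above the CTL median of *Abcg1* (log2 fold change 0.19, 95% confidence interval -0.12 to 0.49, limma adjusted p = 0.32).

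*Apoe*, *Abca1* and *Abcg1* were related to the macrophage markers over the 12 tumors together, but within CTL tumors alone r for *Abca1* was only 0.14. The sum of the 13 macrophage markers ranged from 32891 to 43463 normalized counts in CTL and from 30237 to 72191 in knockdown tumors, the highest value being that of knockdown replicate 1. The lysozyme gene *Lyz2* was the most abundant marker. It made up 40990 of the sum in knockdown replicate 1, and had from 10317 to 17199 in the other knockdown tumors. The relations below were not repeated without *Lyz2*. Of the 13 markers 1 (the scavenger receptor gene *Cd163*) was called higher, and the defining gene *Adgre1* ranged from 332 to 692 and from 590 to 1089 normalized counts. After group means were removed from log2 values, *Apoe* had a Pearson r of 0.86 with the summed macrophage level over 12 tumors (permutation p = 0.00142, adjusted p = 0.00473 over 10 relations) and a Spearman rho of 0.84 (permutation p = 0.00176, adjusted p = 0.0088). *Abca1* had an r of 0.90 (permutation p = 0.0101, adjusted p = 0.0253) and a rho of 0.83 (permutation p = 0.00459, adjusted p = 0.0115). *Abcg1* had an r of 0.75 (permutation p = 1e-05, the smallest that 100000 permutations can give, adjusted p = 1e-04) and a rho of 0.78 (permutation p = 7.5e-04, adjusted p = 0.0075). Leaving out the 2 tumors farthest from the median of each gene lowered r to 0.68, 0.67 and 0.52 in that order.

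Values within each group were also taken, without a test of their difference. Over CTL tumors alone r was 0.49 for *Apoe*, 0.14 for *Abca1* and 0.85 for *Abcg1*, and over knockdown tumors alone it was 0.97, 0.98 and 0.99, where knockdown replicate 1 lies far out. The lysosomal gene *Npc2* showed no such relation that could be detected (r 0.29, permutation p = 0.51, adjusted p = 0.57; rho 0.26, permutation p = 0.45). Knockdown replicate 1 also had the highest sum of the 8 fibroblast markers among knockdown tumors. It had 253173 normalized counts where the others had from 75099 to 158480. Relations of the members to fibroblast markers were not tested.

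**Figure D4:**
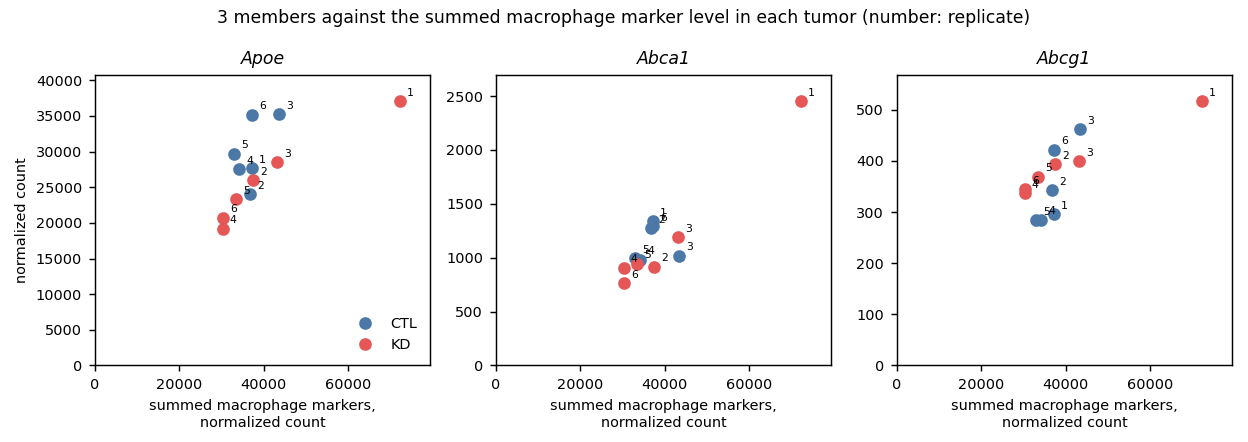
Normalized counts of Apoe, Abca1 and Abcg1 (vertical axes) against the summed normalized count of 13 macrophage markers (horizontal axis) in 6 CTL (blue) and 6 knockdown tumors (red), with the replicate number beside each point. Knockdown replicate 1 has the highest marker sum, 72191, and the highest level of all 3 genes.

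*Npc1* and *Npc2* act in sequence, the soluble NPC2 handing cholesterol in the lysosome to the membrane protein NPC1. *Npc1* maps to chromosome 18 (- strand) at 12189692 to 12236400 (ENSMUSG00000024413) and *Npc2* to chromosome 12 (- strand) at 84754562 to 84773152 (ENSMUSG00000021242). *Npc1* ranged from 2371 to 2710 normalized counts in CTL tumors (median 2615). In knockdown tumors it ranged from 2731 to 3212 (median 3115). The groups touched without overlapping. The change was small, which amounts to 0.24 ± 0.05 (SE) on the log2 scale (limma adjusted p = 0.0022; exact permutation p = 0.00216). Without the 6 tumors with the highest hepatocyte sums its adjusted p was 0.053 by limma, with a log2 fold change of 0.24. Exons of *Npc1* overlap those of *Rmc1* on the opposite strand, which was also higher (log2 fold change 0.39, limma adjusted p = 0.0011), and reads of the overlap cannot be assigned with certainty.

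*Npc2* had the smallest standard error of the 10 genes, 0.05 on the log2 scale. It ranged from 10519 to 11501 normalized counts in CTL and from 10681 to 11823 in knockdown tumors. The groups overlapped almost wholly, with means of 10936 ± 386 and 11286 ± 508 (SD, n = 6 each). The log2 fold change was 0.05 (95% confidence interval -0.06 to 0.15, limma adjusted p = 0.48).

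Of the esterifying enzymes *Soat1* was lower after knockdown, while no change of *Soat2* was detected, and the difference between them was not tested. *Soat1*, the widely expressed enzyme that stores cholesterol as ester in lipid droplets, maps to chromosome 1 (- strand) at 156424525 to 156474331 (ENSMUSG00000026600). It ranged from 2529 to 3070 normalized counts in CTL tumors (median 2688). In knockdown tumors it ranged from 1021 to 2013 (median 1462). Every knockdown tumor lay below every CTL tumor, and knockdown replicate 1, at 2013, was the nearest to them. Means were 2740 ± 192 and 1480 ± 316 normalized counts (SD, n = 6 each), which amounts to -0.91 ± 0.12 (SE) on the log2 scale (limma adjusted p = 3.2e-05; exact permutation p = 0.00216). *Soat1* therefore passed the adjusted p and missed the fold threshold. Without knockdown replicate 1 the log2 fold change was -1.01 (limma adjusted p = 1.7e-06) and the gene was called lower.

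*Soat2*, the enzyme of liver and intestine that makes the cholesterol ester of ApoB particles, maps to chromosome 15 (+ strand) at 102150526 to 102163469 (ENSMUSG00000023045). It ranged from 201 to 293 normalized counts in CTL (median 249) and from 231 to 375 in knockdown tumors (median 260.0). The groups overlapped and 3 of 6 knockdown tumors lay above the CTL median. The log2 fold change was 0.16 (95% confidence interval -0.13 to 0.45, limma adjusted p = 0.39).

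Per kilobase of annotated exon, the order of the levels over all 12 tumors ran from *Apoe* with 13023 normalized counts per kilobase, *Npc2* with 2043 and *Apob* with 1473, through *Apoa1* with 499, *Npc1* with 249 and *Soat1* with 215, to *Soat2* with 121, *Abca1* with 113, *Abcg1* with 50.9 and *Mttp* with 37.5. *Apoe* was above *Npc2*, *Apob* above *Apoa1* and *Abca1* above *Abcg1* in 12 of 12 tumors, and *Soat1* above *Soat2* in 11. The other neighbours held their order in fewer tumors. *Npc2* was above *Apob* in 9 of 12 and *Abcg1* above *Mttp* in 9. *Apoa1* was above *Npc1* in 7, *Soat2* above *Abca1* in 7 and *Npc1* above *Soat1* in 6. Over all 12 tumors *Mttp* thus had the lowest mean per kilobase, and *Apob*, whose protein it loads with lipid, the third highest. The order differed between groups. *Npc1* ranged from 209 to 239 per kilobase in CTL tumors, below *Soat1* at 258 to 314. In knockdown tumors *Npc1*, at 241 to 284, was above *Soat1*, at 104 to 206. Knockdown means were 54.3 for *Mttp* and 53.9 for *Abcg1*. The lengths merge all annotated transcripts of a gene, so this order depends on the annotation as well as on the levels.

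*Mttp* and *Apoa1* varied together within groups. After removal of group means their Pearson r over 12 tumors was 0.72 (permutation p = 8.2e-04, adjusted p = 0.0041) and their Spearman rho was 0.67 (permutation p = 0.00376, adjusted p = 0.0115), with r 0.92 over CTL and 0.84 over knockdown tumors. Without the 2 tumors farthest from the median of *Mttp* r was 0.59. *Apob* with *Mttp* had an r of 0.60 (permutation p = 0.0486, adjusted p = 0.081; rho 0.62, permutation p = 0.0388, adjusted p = 0.0777), and did not pass after adjustment. *Abca1* with *Abcg1* had an r of 0.57 (permutation p = 0.0401, adjusted p = 0.0803; rho 0.44, permutation p = 0.0917) and did not pass either. The remaining pairs, *Apob* with *Apoa1*, *Npc1* with *Npc2* and *Apoe* with *Npc2*, had r of 0.54, 0.40 and 0.10 (permutation p = 0.13, 0.24 and 0.78, adjusted p = 0.18, 0.30 and 0.78) and rho of 0.50, 0.31 and 0.02 (permutation p = 0.15, 0.36 and 0.96). The hepatocyte markers, which differ between these tumors, moved with both genes of the *Mttp* and *Apoa1* pair in CTL tumors, and their part was not tested.

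Among 12887 other genes averaging 50 normalized counts or more, up to 5 that were most like each of 4 members from tumor to tumor were listed by Pearson r of log2 values after removal of group means, over 12 tumors. For *Apob* they were *Slc35e2* (r 0.95), *Fam3b* (0.94), *Olfm4* (0.94), *Gfpt1* (0.91) and *Chst4* (0.91). For *Mttp* they were *Maff* (r 0.93), *Ak4* (0.89), *Zscan22* (0.89), *Cbr1* (0.89) and *Plin2* (0.89). For *Apoa1* they were *Zbtb44* (r 0.95), *Apoa4* (0.92), *Gm4788* (0.90) and *4930486L24Rik* (0.90). For *Apoe* they were *St8sia4* (r 0.97), *C1qb* (0.95), *Nlrp3* (0.94), *Plekha4* (0.94) and *Fyb* (0.94). *C1qb*, a complement gene, is on the macrophage list, and *Apoa4* is an apolipoprotein beside *Apoa1* on chromosome 9. With this many genes compared over 12 tumors, high values of r arise readily, and they are given as a description.

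The wider pathway was read from 9 lists, which hold 88 measured genes beside the 10. Of these 88, 16 were called higher and 2 lower, beside 6.2% and 3.97% of all genes. The median log2 fold change was 0.27, beside 0.01 over all genes. The lists were chosen with earlier results of these data known, and some genes, such as *Abcg5* and *Abcg8*, are counted in more than 1 list. By list, 3 of 13 apolipoproteins, 5 of 15 assembly and secretion genes, 3 of 10 lipases and remodelling genes and 4 of 15 uptake genes were called higher, members included. Of 7 sterol efflux transporters 2 were called higher, of 14 LXR receptors and targets 2 higher and 1 lower, and of 19 genes of lysosomal and intracellular sterol transport 1 higher. Of the 7 esterification and ester hydrolysis genes 1 passed the adjusted p upward and 2 downward, *Soat1* included, all within the fold threshold. Of 8 sterol sensing genes 1 was called higher. *Apoc2*, *Apom*, *Lrp2* and *Abcg4* were not analysed here.

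**Figure D5:**
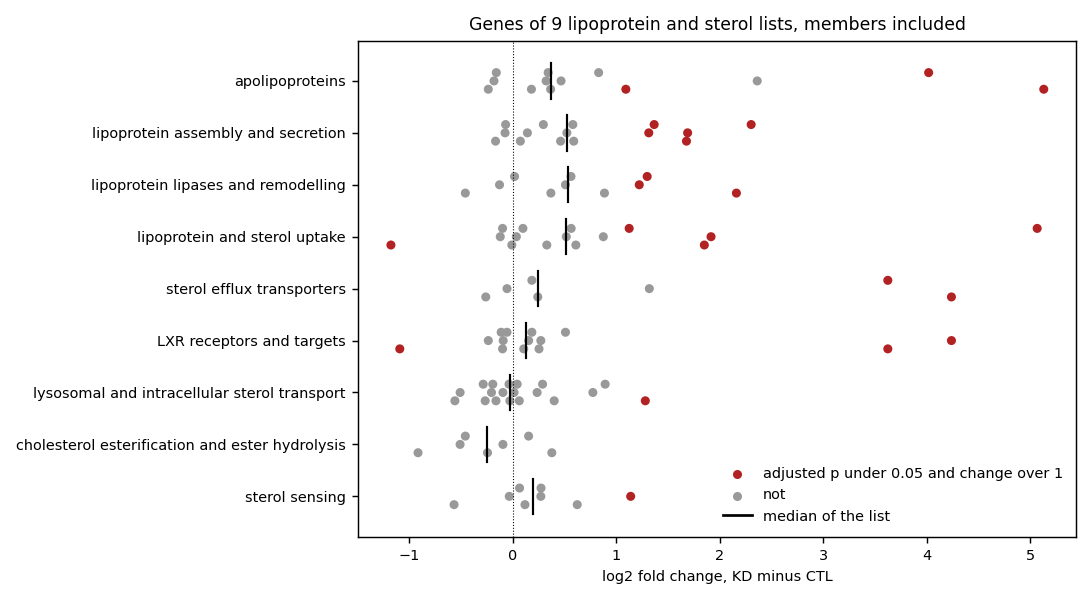
Log2 fold change, knockdown minus CTL (horizontal axis), of the measured genes of 9 lists (rows), members included and red where called, with a black line at the median of each list. Of the called genes 2, Olr1 and Arl4c, lie left of 0, and the esterification list has no called gene.

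Of the 15 assembly and secretion genes 5 were called higher, *Mttp* among them, and the 10 that were not called had log2 fold changes from -0.16 to 0.59. *Tm6sf2*, which is needed to lipidate ApoB particles, went from 40.9 ± 9.96 to 215 ± 73.7 normalized counts (SD, n = 6 each; log2 fold change 2.30, limma adjusted p = 8.8e-06). *Cideb*, a lipid droplet protein of particle maturation, went from 144 ± 29.8 to 482 ± 166 (log2 fold change 1.68, limma adjusted p = 4.5e-05). *Mogat2*, an intestinal enzyme of triglyceride synthesis, went from 116 ± 23.3 to 385 ± 107 (log2 fold change 1.69, limma adjusted p = 3.0e-05). *Dgat2*, another enzyme of triglyceride synthesis, was called with overlapping ranges, 196 to 618 in CTL and 433 to 1064 in knockdown tumors (log2 fold change 1.32). *P4hb*, the partner subunit of MTTP, and the secretory pathway genes *Sec24c*, *Mia2* and *Sar1b* passed the adjusted p with log2 fold changes of 0.46, 0.58, 0.53 and 0.30, and *Sar1a* with -0.16, none of them past the fold threshold. *Sec24c* and *Cideb* lie on chromosome 14, where the median of 452 genes was 0.38. The log2 fold change of *Sec24c* was 0.20 (limma adjusted p = 0.0096) once chromosome medians were removed. For *Cideb* it went down to 1.30 over the 9 planned settings with all tumors, removal of chromosome medians among them, and the call was kept. *Mia3*, *Sec23a*, *Lman1* and *Surf4* did not pass the adjusted p.

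*Apoa4*, an intestinal apolipoprotein gene downstream of *Apoa1*, was higher after knockdown, by an amount that depended on the model. In CTL replicates 1 to 6 it had 1, 3.79, 13.6, 25.9, 196 and 56.4 normalized counts. In knockdown replicates 1 to 6 it had 270, 745, 763, 630, 1452 and 555. The groups did not overlap, and the CTL tumors rich in *Alb* were again the highest of theirs. The log2 fold change was 5.13 ± 0.88 (SE; limma adjusted p = 3.2e-04), 4.01 with edgeR and 3.903 with DESeq2. The neighbouring *Apoc3* and *Apoa5* and the *Apoa2* gene on chromosome 1 were not called, with *Apoa2* at 13.6 to 18.2 normalized counts in the 3 knockdown tumors low in *Alb* and 205 to 384 in the others.

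Sterol transporters of the intestinal brush border rose from very low levels. *Npc1l1*, the absorptive sterol importer, reached at most 12 normalized counts in any CTL tumor and lay between 83.7 and 171 after knockdown (log2 fold change 5.07, limma adjusted p = 2.5e-06). *Abcg5* and *Abcg8*, the paired pump that returns plant sterol and cholesterol to the lumen or bile, had from 0 to 17.9 and from 0.947 to 16.4 normalized counts in CTL. They had from 53.4 to 160 and from 47.4 to 112 in knockdown tumors (log2 fold changes 4.24 and 3.62, limma adjusted p = 5.9e-05 and 4.0e-05). *Npc1l1* stood at or under 3 reads in 3 of 6 CTL tumors and *Abcg5* and *Abcg8* in 2 of 6 each, so the size of these changes is uncertain.

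Genes of receptor-mediated uptake and of sterol sensing moved as follows. *Sort1*, a sorting receptor that binds ApoB, was called higher, 778 ± 174 against 2889 ± 261 normalized counts (SD, n = 6 each; log2 fold change 1.92, limma adjusted p = 1.1e-07). *Insig1*, which holds SREBP in the endoplasmic reticulum when sterol is plentiful, was called higher (log2 fold change 1.14), while *Stard4*, a sterol carrier, passed the adjusted p with 0.89. *Cd36*, *Osbpl10* and the lipase genes *Lpl*, *Lipg* and *Lipc* were called higher with log2 fold changes of 1.13, 1.28, 1.30, 2.16 and 1.22. *Lipc*, at 2 to 25.2 normalized counts, was the least secure of these, losing its call in 5 of 12 fits that left out 1 tumor, with adjusted p from 0.012 to 0.057 by limma. *Cd36* fell just short of the fold threshold without the 3 tumors with the highest hepatocyte sums (log2 fold change 0.989, limma adjusted p = 0.0011).

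Called lower were *Olr1*, a scavenger receptor for oxidized LDL, and *Arl4c*, an LXR target linked to sterol export. *Olr1* went from 1251 ± 243 to 577 ± 242 normalized counts with overlapping ranges (SD, n = 6 each; log2 fold change -1.17, limma adjusted p = 3.2e-04). *Arl4c* went from 11665 ± 759 to 5567 ± 1118 without overlap (log2 fold change -1.09, limma adjusted p = 3.7e-06). The LXR target *Srebf1* passed the adjusted p on the other side (log2 fold change 0.27, limma adjusted p = 0.0095), and the change of *Abca1*, as given above, could not be told from 0 in either direction. Of the LXR list *Abcg5* and *Abcg8* were called higher, as given above. The lipid droplet coat gene *Plin2* was lower than in CTL by 0.51 on the log2 scale with separate ranges. The lipid droplet gene *Cideb* was called higher (log2 fold change 1.68).

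In all, 45 of the 88 genes averaged 1000 normalized counts or more. Of these 45, 4 were called, 15 passed the adjusted p alone upward and 9 downward, with log2 fold changes from -0.56 to 0.89. The remaining 17 passed neither criterion and lay between -0.26 and 0.26.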

How the data were processed

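RNA of 12 subcutaneous mTC11 tumors was sequenced by the authors with the NEBNext Ultra II RNA kit. Per the submitters' processing notes, bcl2fastq 2.20, Trimmomatic 0.36, STAR 2.5.2b, featureCounts of Subread 1.5.2 and DESeq2 were used with the build mm10. The deposited values are a signal, counts of reads per gene that the authors divided by each tumor's DESeq2 size factor. All 188244 values (100%) were whole multiples of the step of their tumor within 1e-06 reads, so reads could be recovered, and the floor of 3 reads is taken from them. That floor covers counting error only, since reads carry no molecular identifiers, while the confidence intervals of fold changes come from limma and measure the spread between tumors.

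Groups came from the labels, and nothing says whether a number pairs tumors. Values were analysed as log2 (normalized count + 1), and a filter at a mean of 5 removed no gene, the lowest mean being 9.28. The main test was limma 3.58.1 in R 4.3.3 with a variance trend and Benjamini-Hochberg adjustment over 15687 genes. Single genes were also compared by exact two-sided permutation over 924 arrangements, and relations by 100000 permutations within groups. The count models edgeR 4.0.16 and DESeq2 1.42.0 on the recovered reads were added as alternatives and called 1635 and 1652 genes, where limma called 1596. Symbols and positions came from GENCODE vM21 (GRCm38), which matched 15655 identifiers. Exon lengths merge all annotated transcripts. The comparison of knockdown with CTL across all genes was tested on simulated data.

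A few results for single genes are not reported here. The members and lists were chosen with earlier results of these data known. Named were all members, pathway genes past both thresholds, and those with a mean of at least 1000 that passed the adjusted p, described in part by their range; 7 marker lists (enterocyte, hepatocyte, macrophage, adipocyte, skeletal muscle, lung epithelium, fibroblast) were read by their sums. Replicates are separate tumors by their labels; p-values measure the spread between them. Alternatives were pseudocounts of 0.5 and 8, no filter or one at 20, scaling by the 75th percentile or to equal totals, no trend, the replicate block, removal of chromosome medians, leaving out each tumor, and, added after seeing the data, both count models, 2 sets of tumors left out by hepatocyte sum, and the hepatocyte level as covariate. Figures were drawn with matplotlib 3.10.9.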

Additional observations from a re-analysis of the deposited data

Results flagged for a closer look

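In 24 groups of 6 tumors (the 10 genes and the hepatocyte and macrophage sums, in each group), 6 held a tumor whose gap to its neighbour took a share of the group's range above Dixon's 95% critical value. Chance alone flags about 1 in 20 groups when values are normal and groups independent. Here the values were counts, and all 6 flags fell on CTL replicate 5 or knockdown replicate 1 in related measures. The count of flags therefore cannot be set against that rate.

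CTL replicate 5 stood above the other CTL tumors in 3 of these measures. It had 195.7 normalized counts of *Mttp* where the others had from 97.2 to 133, and 615 of *Apoa1* where the others had from 14 to 150. Its hepatocyte marker sum was 9936 normalized counts where the others had from 445 to 1693.

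Knockdown replicate 1 stood above the other knockdown tumors in the other 3. It had 2455 normalized counts of *Abca1* where the others had from 763 to 1188, and 517 of *Abcg1* where the others had from 337 to 400. Its macrophage marker sum was 72191 normalized counts where the others had from 30237 to 43191. Of that sum 40990 came from the single marker *Lyz2*, which had from 10317 to 17199 in the other knockdown tumors. The sum was not examined without *Lyz2*. The part of either marker sum in the flagged gene values was not tested.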

How the results depend on the processing

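*Apob*, *Mttp* and *Apoa1* were called higher under all 26 alternatives. Their log2 fold changes ranged from 1.03 to 1.17, 1.27 to 1.496 and 3.60 to 4.67 over the 12 fits that left out 1 tumor, and from 1.05 to 1.098, 1.32 to 1.37 and 3.77 to 4.04 over the 9 planned ones that kept all tumors. *Soat1* was called lower without knockdown replicate 1 (-1.01) and without the 3 tumors with the highest hepatocyte sums (-1.01), and ranged from -1.01 to -0.81 when 1 tumor was left out. *Abca1* changed sign with edgeR (0.045) and DESeq2 (0.057) and ranged from -0.29 to 0.052 when 1 tumor was left out. The number of the 10 genes called was 3 or 4 throughout. The number of all genes called ranged from 1352 with a pseudocount of 8 to 1713 without knockdown replicate 1. With the replicate block 3 of the 10 and 1554 genes were called, and of the named genes *Lipc* lost its call (adjusted p = 0.057 by limma). Tumors of the same number gave no sign of pairing, their correlations after removal of group means running from -0.269 to 0.0990, and the labels do not say whether they were paired. With chromosome medians removed, *Sec24c* went from 0.58 to 0.20, and 2 genes that were not called changed sign, *Lamp1* (0.039) and *Osbp* (0.095). Rescaling moved the median of all genes to at most -0.03 on the log2 scale. Depth limits the size of the changes of *Npc1l1*, *Abcg5* and *Abcg8*, which lay near 3 reads in CTL tumors. The cause of these differences between settings was not tested.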

Other observations

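Marker lists of other cell types were measured in the same tumors. The sum of 10 skeletal muscle markers ranged from 2357 to 12126 normalized counts in CTL and from 7196 to 86815 in knockdown tumors, and 8 of the 10 were called higher, with overlapping ranges for each of the 8. The muscle creatine kinase gene *Ckm* ranged from 206 to 1199 and from 501 to 9173. The sum of 6 measured adipocyte markers, led by *Pparg*, ranged from 1134 to 1664 and from 1722 to 2748 normalized counts. *Pparg* was not called and its ranges overlapped, 838 to 1456 and 870 to 1940. *Cidec* and *Fabp4* were called higher, and the defining gene *Adipoq* had at most 29.9 and 29.2.

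Defining genes of lung epithelium were low in these tumors of a lung cancer line. *Nkx2-1* reached at most 37.3 normalized counts in CTL and 90.6 in knockdown tumors, and *Sftpc* at most 53 and 60.5, each with tumors near or at 0. The sum of 7 measured lung epithelium markers, led by *Sftpd*, ranged from 1107 to 2838 and from 1969 to 3812 normalized counts, and *Sftpb* was called higher. The 8 fibroblast markers, led by *Col1a1*, summed to between 160816 and 262944 normalized counts in CTL and between 75099 and 253173 in knockdown tumors, and 3 passed the adjusted p downward within the fold threshold. The part of these cell types in the levels of the 10 genes was not tested.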
